A study of Mus musculus with 12 samples.

Results

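The genes described here encode 3 groups of proteins that handle pre-messenger RNA in the nucleus. They are the SR proteins (symbols starting with Srsf), the heterogeneous nuclear ribonucleoproteins (Hnrnp) and the subunits of splicing factors 3a and 3b (Sf3). All genes whose platform symbol starts with 1 of these prefixes were taken, each by the probe set that names it alone and has the highest mean over the 12 arrays. That gave 38 genes with 121 probe sets, of 18193 genes measured: 10 Srsf, 19 Hnrnp and 9 Sf3 genes. Of 40 platform symbols with the prefixes, Hnrnpa3 and Hnrnpa1l2-ps2 were read only by probe sets shared with other symbols and were not analysed, and Srsf7 has no row in the platform annotation used here.

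RNA came from splenic B220+ B cells of C57BL/6 mice with the transgene Tg(IghelMD4)4Ccg, which gives B cells a receptor for the antigen HEL, hen egg lysozyme. The cells were selected with magnetic beads, cultured with anti-CD40, IL21 and HEL, and read on Affymetrix mouse genome-wide expression arrays. The 6 groups had 2 arrays each: cells at day 3 labelled Jmjd2a-depleted, Jmjd2c-depleted or control, and the same labels at day 1. All 6 groups shared strain, transgene and stimulation, and the controls received shcontrol virus. The depletion targets Jmjd2a (Kdm4a) and Jmjd2c (Kdm4c), demethylases of histone H3 lysine 9, in a study of genes they regulate as B cells become plasma cells. Depletion is described once as siRNA and once as sh virus. Age and sex are not given, and the titles call the arrays biological replicates without naming separate cultures or mice, so p-values measure only the spread between these arrays, which may be technical.

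SR proteins carry RNA recognition motifs and a tail rich in arginine and serine, bind exonic enhancers, and help to recruit the spliceosome to nearby splice sites. Proteins of the hnRNP families coat nascent transcripts and often repress splice sites or exons, and several also steer mRNA export and decay. Splicing factors 3a and 3b are parts of the U2 small nuclear ribonucleoprotein (snRNP) and hold it to the branch point of the intron. In B cells that become plasma cells, splicing and polyadenylation choices decide between membrane-bound and secreted immunoglobulin, and in mice Hnrnpll takes part in that switch.

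Values below are deposited log2 probe set values, differences are log2 differences with the standard error of the limma fit, and "past the test" means a limma p under 0.05 after Benjamini-Hochberg adjustment over 45037 probe sets. The brightest probe sets of the 38 genes had a median mean of 11.40, against 6.08 over all genes. These are signals of different probes and do not rank the genes by abundance. Only Srsf12, at 2.49, lay below the median of all probe sets. Hnrnpa1 and Hnrnpf were read brightest by probe sets of the x type, which may bind related transcripts. Bright probe sets passed the test more often than dim ones. Counts of genes are therefore set beside the share of all 18193 genes and, for most, beside that of the 5478 bright genes, those with a mean above 8. That level was chosen after seeing the data. Of the 38 genes, 36 lie above it.

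The transcripts targeted did not bear out the labels. Kdm4a read 8.08 and 8.05 with the Jmjd2a label at day 3, against 8.2 and 8.17 in day 3 controls, and 7.94 and 8.09 at day 1, against 7.9 and 7.92 in day 1 controls. Kdm4c read 7.81 and 7.78 with the Jmjd2c label at day 3, against 7.96 and 7.56 in day 3 controls, and 8.02 and 7.98 at day 1, against 7.78 and 7.84 in day 1 controls. Only Kdm4a at day 3 lay below both controls, by a small margin. Kdm4a on the arrays labelled Jmjd2a-depleted differed from control by -0.12 ± 0.09 at day 3 (adjusted p = 0.36) and by 0.11 ± 0.09 at day 1 (adjusted p = 0.62). Kdm4c on those labelled Jmjd2c-depleted differed by 0.03 ± 0.12 (adjusted p = 0.91) and 0.19 ± 0.12 (adjusted p = 0.41). Directions below are therefore those of arrays so labelled. Over all probe sets the arrays labelled depleted at day 3 had a mean correlation of 0.9967 (Jmjd2a) and 0.9954 (Jmjd2c) with the day 1 controls, and of 0.9849 and 0.9876 with the day 3 controls. One array, day 3 control replicate 2, had an interquartile range of 3.09, where the others had 3.38 to 3.63. On it the 18S probe sets had a mean of 10.73, where the others had 11.73 to 12.73. Both day 3 control arrays bear 1 description, and their titles number them apart. Whether labels or files were exchanged was not tested, and every direction given rests on the labels as deposited. In bulk RNA, fewer cells of a type and less RNA per cell cannot be told apart.

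**Figure D1:**
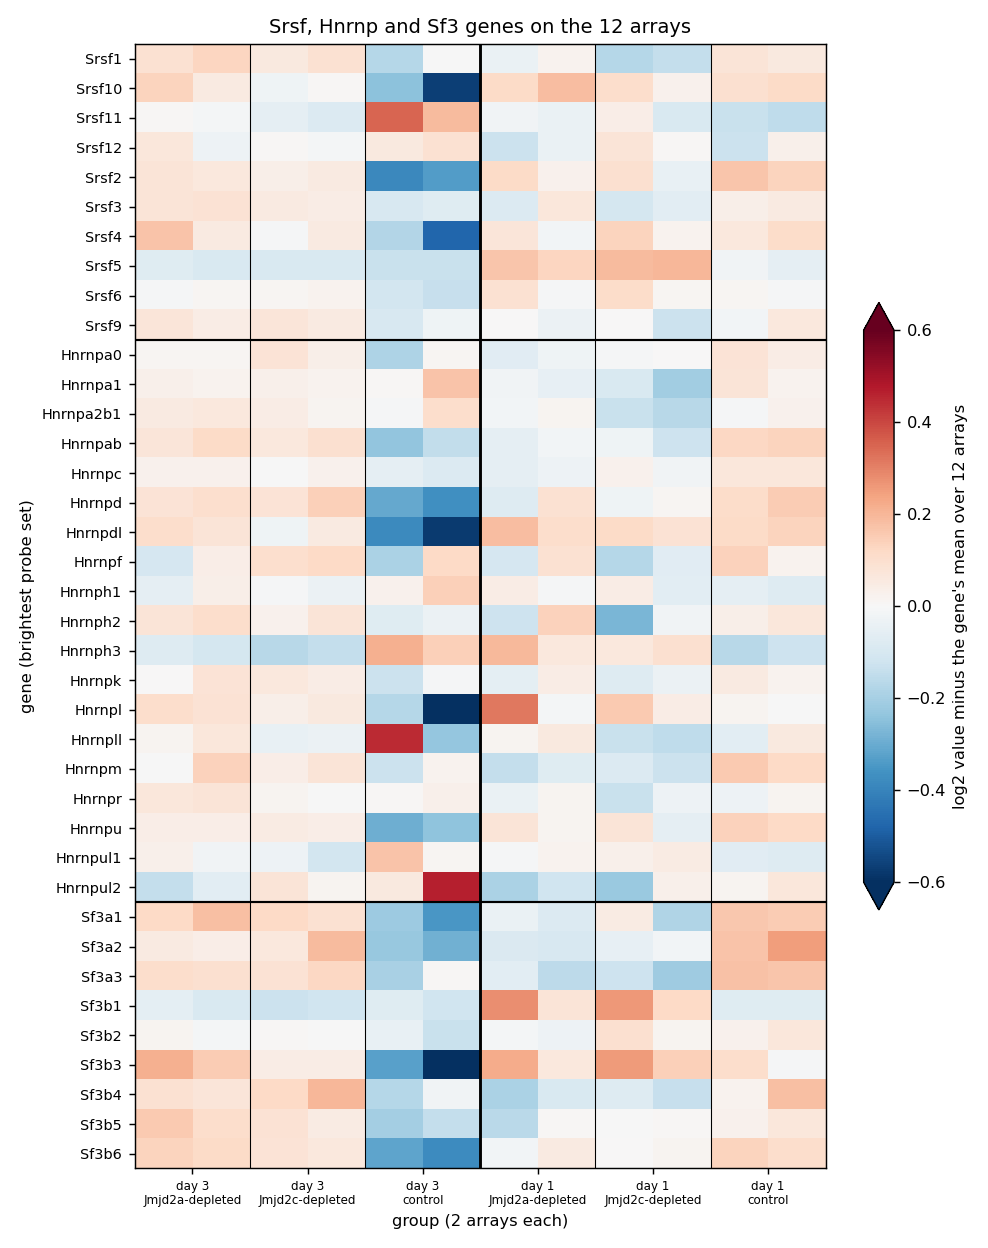
Log2 value of each of the 38 genes on each of the 12 arrays (columns, 2 per group) minus the gene's mean over the 12 arrays; colours end at 0.6 in either direction. The day 3 control columns hold most of the deep blue cells, among them Hnrnpdl, Srsf2 and Sf3b6, while Srsf11 is red there.

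Day 3 controls carried lower signals of many splicing factors than day 1 controls. Of the 38 genes, 18 fell and 2 rose past the test, where 17.2% of all genes fell and 11.2% rose. Among bright genes the share that fell was 38.5%, against 18 of 36 bright splicing genes (50%), and the count is to be read against that share. The median difference was -0.14 over the 38 genes and -0.16 over the bright genes. By family, 5 of 10 Srsf genes, 7 of 19 Hnrnp genes and 6 of 9 Sf3 genes fell, and the rises were Srsf11 and Hnrnph3. The count was 13 without day 1 control replicate 1, 12 without day 1 control replicate 2 and 23 without day 3 control replicate 2, of which 17 were among the original 20. Fallen genes alone numbered 19 without that last array.

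Among the SR proteins Srsf2, also called SC35, fell clearly. It read 11.7 and 11.75 in day 3 controls, against 12.25 and 12.22 in day 1 controls, a difference of -0.51 ± 0.05 (limma adjusted p = 2.1e-05). Srsf10, which represses splicing when it loses its phosphates, read 10.47 and 10.15 in day 3 controls, against 10.81 and 10.83 in day 1 controls (-0.51 ± 0.09, limma adjusted p = 9.7e-04). In both genes each day 3 control lay below each day 1 control, and Srsf10 was lower on the array that stood apart. Srsf4 gave 9.94 and 9.64, against 10.18 and 10.23 (-0.41 ± 0.09, limma adjusted p = 0.006); without day 1 control replicate 2 its adjusted p was 0.053, and without day 3 control replicate 2 its difference was -0.26. Srsf1 and Srsf3 fell by 0.15 ± 0.05 and 0.14 ± 0.04 (limma adjusted p = 0.043 and 0.044), calls that ended without either day 1 control array (adjusted p = 0.13 to 0.19). That of Srsf1 ended also without day 3 control replicate 1 (-0.07, adjusted p = 0.25, and -0.24 without replicate 2, past the test), any Jmjd2c array or any day 3 Jmjd2a array (adjusted p = 0.053 to 0.068), and that of Srsf3 without any array of day 3 (adjusted p = 0.068 to 0.089).

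Srsf11, an SR-like protein that meets U2AF at the 3′ splice site, went the other way. It read 11.87 and 11.71 in day 3 controls, against 11.39 and 11.37 in day 1 controls (0.41 ± 0.06, limma adjusted p = 2.8e-04). This rise passed without each of the 12 arrays in turn.

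In the hnRNP families Hnrnpdl had the smallest p. This relative of Hnrnpd, which binds AU-rich RNA and takes part in mRNA decay, read 12.62 and 12.43 in day 3 controls, against 13.12 and 13.14 in day 1 controls (-0.61 ± 0.05, limma adjusted p = 7.8e-06). Hnrnpd itself read 11.66 and 11.6, against 12.08 and 12.12 (-0.47 ± 0.05, limma adjusted p = 6.6e-05). Hnrnpu, which also binds the nuclear scaffold, read 12.54 and 12.59, against 12.97 and 12.95 (-0.40 ± 0.04, limma adjusted p = 2.8e-05). In these 3 genes the day 3 and day 1 controls did not overlap. Hnrnpab read 12.73 and 12.82, against 13.09 and 13.1 (-0.32 ± 0.04, limma adjusted p = 1.4e-04). Each of these 4 calls held without each array in turn.

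Other hnRNP genes moved less firmly. Hnrnpl, a binder of CA-rich RNA, read 10.06 and 9.6 in day 3 controls, against 10.25 and 10.23 in day 1 controls (-0.41 ± 0.13, limma adjusted p = 0.039). The difference was -0.64 without day 3 control replicate 1 (adjusted p = 0.00043) and -0.18 without day 3 control replicate 2 (adjusted p = 0.29), and the call also ended without either day 1 control (adjusted p = 0.17 and 0.13) or any day 3 array labelled depleted (adjusted p = 0.061 to 0.062). Hnrnph3 rose, with 9.16 and 9.09 in day 3 controls, against 8.78 and 8.82 in day 1 controls (0.32 ± 0.08, limma adjusted p = 0.0076), and its adjusted p was 0.074 without day 1 control replicate 1. Hnrnpc fell by 0.13 ± 0.03 and Hnrnpm fell by 0.20 ± 0.06 (limma adjusted p = 0.0099 and 0.042); both calls ended without either day 1 control, at adjusted p between 0.062 and 0.21. Hnrnpc ended also without day 3 control replicate 2 (adjusted p = 0.054), and Hnrnpm without day 3 control replicate 1 (-0.12, adjusted p = 0.15) or any Jmjd2c array (adjusted p = 0.051 to 0.067).

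The Sf3 genes fell without exception among those that passed. Sf3b6, the subunit at the branch point adenosine, read 11.63 and 11.57 in day 3 controls, against 12.08 and 12.05 in day 1 controls (-0.47 ± 0.04, limma adjusted p = 7.0e-06). Of the 3a complex, Sf3a2 read 10.97 and 10.91, against 11.37 and 11.45 (-0.47 ± 0.05, limma adjusted p = 6.4e-05), and Sf3a1 read 9.2 and 9.07, against 9.58 and 9.57 (-0.44 ± 0.08, limma adjusted p = 0.0023). The 2 groups of control arrays were apart in each. Dimmer probe sets were mixed. Sf3a1 1419087_s_at lay the other way, at 7.84 and 7.8, against 7.69 and 7.66 in day 1 controls. Its 1446687_at read 5.51 and 5.8, against 5.84 and 5.73. Sf3a2 1450576_a_at read 6.42 on both day 3 controls, against 6.33 and 6.38. Sf3b3 read 10.31 and 9.72, against 10.74 and 10.63; its difference of -0.67 ± 0.14 (limma adjusted p = 0.0039) was -0.37 without day 3 control replicate 2, still past the test. Sf3b3 lies in the part of factor 3b that scaffolds the complex. Sf3a3 fell by 0.26 ± 0.07 and Sf3b5 fell by 0.22 ± 0.05 (limma adjusted p = 0.014 and 0.012); the first call ended without either day 1 control array (adjusted p = 0.09 and 0.073) and was -0.17 without day 3 control replicate 1, and the second call ended without day 1 control replicate 2 (adjusted p = 0.093). Sf3b1, the subunit that grips the branch point helix, read 11.81 and 11.76, against 11.81 on both day 1 control arrays (-0.02 ± 0.06, limma adjusted p = 0.82).

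Promoter sequences from RefSeq (build GRCm38.p6), given from 250 bases before to 50 bases after the start of transcription, were found for 34 of the 38 genes. Of the genes that fell, 4 are shown to set 2 with a CCAAT box beside 2 without, as the 150 bases before the start, each on the minus strand except that of Sf3b6. They lie at chr11:116853095-116853244 (Srsf2), chr11:51606882-51607031 (Hnrnpab), chr5:100039223-100039372 (Hnrnpdl) and chr12:4817458-4817607 (Sf3b6). Capitals mark CCAAT or ATTGG, the motif of NF-Y, and TATAAA, the TATA box.
Srsf2: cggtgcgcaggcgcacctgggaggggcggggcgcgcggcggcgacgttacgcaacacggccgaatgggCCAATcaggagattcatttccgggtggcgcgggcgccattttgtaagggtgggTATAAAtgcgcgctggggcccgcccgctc
Hnrnpab: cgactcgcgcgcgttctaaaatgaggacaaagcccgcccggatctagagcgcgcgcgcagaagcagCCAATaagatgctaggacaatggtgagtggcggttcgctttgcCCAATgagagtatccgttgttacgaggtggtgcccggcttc
Hnrnpdl: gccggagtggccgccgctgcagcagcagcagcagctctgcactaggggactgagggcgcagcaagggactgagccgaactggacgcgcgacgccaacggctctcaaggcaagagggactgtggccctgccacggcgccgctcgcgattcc
Sf3b6: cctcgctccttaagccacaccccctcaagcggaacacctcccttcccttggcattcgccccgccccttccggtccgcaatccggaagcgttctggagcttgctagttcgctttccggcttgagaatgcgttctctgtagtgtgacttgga

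The Srsf2 sequence holds 1 CCAAT at position -82 from the start and TATAAA at -29, and that of Hnrnpab holds CCAAT at -84 and -41. The 3 motifs were searched on both strands, with no overlap between them: CACGTG (the E-box of Myc and Max), CCAAT or ATTGG, and TATAAA or TTTATA. Of the 47 promoter sequences of the splicing genes, 48.9% held CCAAT or ATTGG, against 37.4% of all 32851 promoter sequences of this length. CACGTG was in 8.51% against 7.15%, and TATAAA or TTTATA in 10.6% against 13.6%. These are counts of letters, and say nothing of whether a factor was bound.

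At day 3 the arrays labelled depleted carried higher signals of the same families than the day 3 controls. With the Jmjd2a label 15 of the 38 genes rose and 2 fell, where 16% of all genes rose and 9.04% fell; with the Jmjd2c label 13 rose and 2 fell, where 12.1% rose and 7.21% fell. Among bright genes 35.8% and 28.9% rose, against 41.7% and 36.1% of the 36 bright splicing genes, so the excess over bright genes was small here too. Median differences over the 38 genes were 0.12 and 0.14, and over bright genes 0.15 and 0.10. These comparisons share the day 3 controls with each other and with the comparison between days above. The Jmjd2a count kept 11 of its 17 calls without each array in turn. The Jmjd2c count was 9 without day 3 Jmjd2c replicate 1 and 8 without replicate 2, and both counts were 21 without day 3 control replicate 2.

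**Figure D2:**
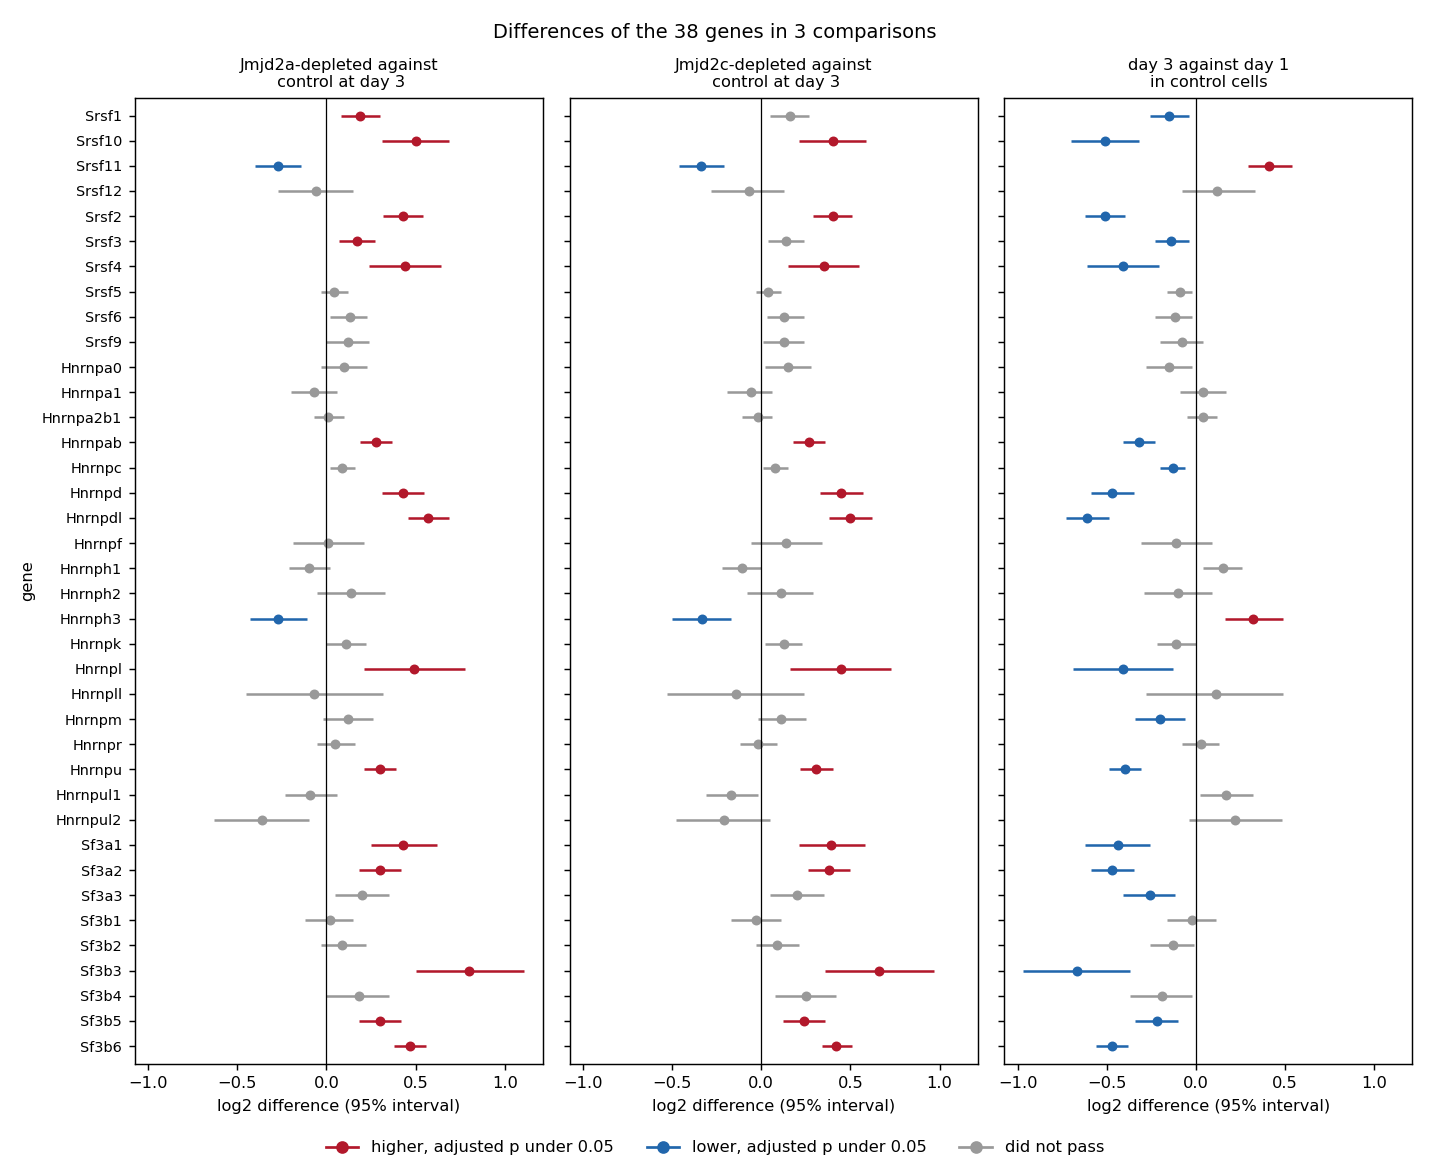
Log2 difference of each of the 38 genes with its 95% interval in 3 comparisons: each day 3 label against day 3 control, and day 3 against day 1 in control cells. Red and blue mark genes higher and lower past the test, and grey those that did not pass; Sf3b3 has the highest difference of the first panel, 0.80, and Srsf11 and Hnrnph3 are blue in the first and second panels.

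For Srsf2 the arrays labelled Jmjd2a-depleted read 12.16 and 12.15 and those labelled Jmjd2c-depleted 12.12 and 12.14, against 11.7 and 11.75 in day 3 controls. The differences were 0.43 ± 0.05 and 0.40 ± 0.05 (limma adjusted p = 1.1e-04 and 2.2e-04). Srsf10 read 10.85 and 10.77, and 10.69 and 10.72, against 10.47 and 10.15 in controls. Its differences were 0.50 ± 0.09 and 0.40 ± 0.09 (limma adjusted p = 0.0014 and 0.0074). All 4 labelled arrays lay above both controls in these genes. The Srsf10 difference with the Jmjd2c label was 0.24 without day 3 control replicate 2, and its adjusted p was 0.075 without day 3 Jmjd2c replicate 2. Srsf4 rose by 0.44 ± 0.09 and 0.35 ± 0.09 (limma adjusted p = 0.0051 and 0.024). It had only 0.29 and 0.20 without day 3 control replicate 2, the second no longer past the test (adjusted p = 0.1). The calls also ended without day 3 Jmjd2a replicate 1 (adjusted p = 0.061), and without day 3 Jmjd2c replicate 1 or 2 (adjusted p = 0.096 and 0.17).

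Srsf1, which helps to define 5′ splice sites, and Srsf3, the smallest SR protein, passed with the Jmjd2a label (0.19 ± 0.05 and 0.17 ± 0.04, limma adjusted p = 0.018 and 0.019). Srsf3 with the Jmjd2c label gave 0.14 ± 0.04 (limma adjusted p = 0.063). The Srsf1 and Srsf3 calls ended without either day 3 Jmjd2a array (adjusted p = 0.054 to 0.14), and that of Srsf1 also without day 3 control replicate 1 (0.11, adjusted p = 0.076). Srsf11 fell, with 11.53 and 11.51 on Jmjd2a and 11.47 and 11.44 on Jmjd2c arrays, against 11.87 and 11.71 in controls. Its differences were -0.27 ± 0.06 and -0.34 ± 0.06 (limma adjusted p = 0.0062 and 0.0021), the first with an adjusted p of 0.058 without day 3 Jmjd2a replicate 2.

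Hnrnpdl read 13.11 and 13.08 with the Jmjd2a label and 12.98 and 13.06 with the Jmjd2c label, against 12.62 and 12.43 in day 3 controls (0.57 ± 0.05 and 0.50 ± 0.05, limma adjusted p = 2.2e-05 and 7.0e-05). Hnrnpd read 12.05 and 12.07, and 12.05 and 12.11, against 11.66 and 11.6 (0.43 ± 0.05 and 0.45 ± 0.05, limma adjusted p = 2.0e-04 and 1.7e-04). Hnrnpu read 12.87 on both Jmjd2a arrays and 12.88 and 12.87 on the Jmjd2c arrays, against 12.54 and 12.59 (0.30 ± 0.04 and 0.31 ± 0.04, limma adjusted p = 3.1e-04 and 3.0e-04). None of these groups overlapped, and all 6 calls held without each array in turn. Dimmer probe sets did not all follow. Hnrnpdl 1428225_s_at read 9.36 and 9.4 with the Jmjd2c label, against 9.63 and 9.48, while its other further probe sets were higher on average. Hnrnpu 1434391_at read 8.1 and 8.07, and 7.96 and 7.85, against 8.29 and 8.08. Its 1423050_s_at hardly moved, and its 1450849_at was higher with both labels. Hnrnpab rose by 0.28 ± 0.04 and 0.27 ± 0.04 (limma adjusted p = 4.8e-04 and 8.6e-04), also without each array. Hnrnph3 fell by 0.27 ± 0.08 and 0.33 ± 0.08 (limma adjusted p = 0.024 and 0.0099), calls that ended without either array of the label (adjusted p = 0.077 to 0.15). The Hnrnpl rises of 0.49 ± 0.13 and 0.45 ± 0.13 (limma adjusted p = 0.018 and 0.038) were 0.27 and 0.22 without day 3 control replicate 2 (adjusted p = 0.11 and 0.2). They ended also without either array of the label, at adjusted p = 0.094 and 0.097 for Jmjd2a and 0.15 and 0.18 for Jmjd2c, where day 1 controls or the Jmjd2a arrays of day 3 also ended the call.

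Sf3b6 read 12.08 and 12.06 with the Jmjd2a label and 12.03 and 12.01 with the Jmjd2c label, against 11.63 and 11.57 in day 3 controls (0.47 ± 0.04 and 0.42 ± 0.04, limma adjusted p = 1.3e-05 and 3.1e-05). Sf3b3 read 10.85 and 10.79, and 10.68 on both Jmjd2c arrays, against 10.31 and 9.72 (0.80 ± 0.14 and 0.66 ± 0.14, limma adjusted p = 0.0016 and 0.0065). Its differences were 0.51 and 0.37 without day 3 control replicate 2, both past the test, and the second ended without either Jmjd2c array (adjusted p = 0.052 and 0.057). The 3a subunits Sf3a1 and Sf3a2 rose by 0.43 ± 0.08 and 0.30 ± 0.05 with the Jmjd2a label and by 0.39 ± 0.08 and 0.38 ± 0.05 with the Jmjd2c label (limma adjusted p between 5.3e-04 and 0.0071). By the dimmer 1419087_s_at, Sf3a1 was lower with the labels, at 7.65 and 7.68, and 7.7 and 7.55, against 7.84 and 7.8. By 1446687_at it read 5.66 and 5.88, and 5.83 and 5.68, against 5.51 and 5.8. Sf3b5 rose by 0.30 ± 0.05 and 0.24 ± 0.05 (limma adjusted p = 0.002 and 0.012). The Jmjd2c calls of Sf3a1 and Sf3b5 ended without either Jmjd2c array of day 3 (adjusted p = 0.058 to 0.11). Sf3b1 differed from control by 0.02 ± 0.06 and -0.03 ± 0.06 (limma adjusted p = 0.88 and 0.84).

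**Figure D3:**
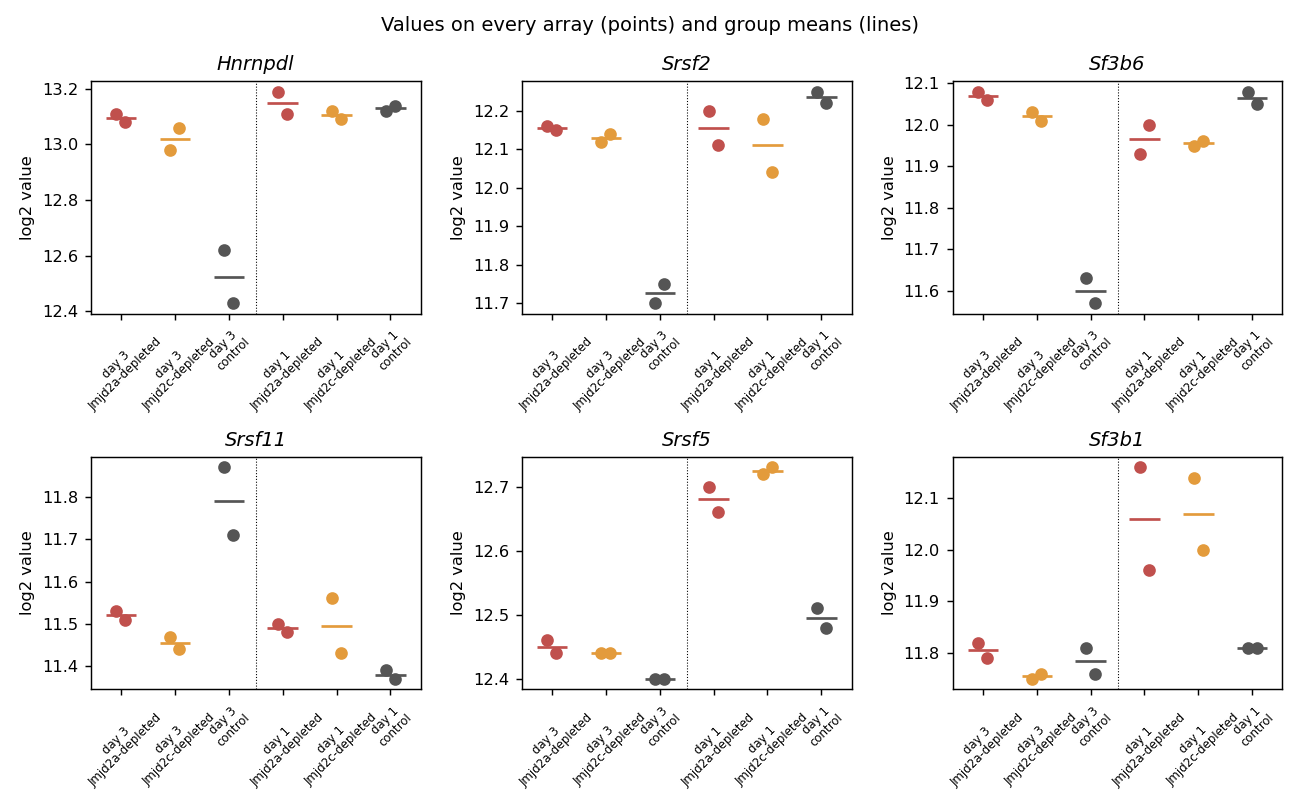
Log2 value of 6 genes on every array (points) with the mean of each group of 2 (lines), day 3 left and day 1 right of the dotted line; axes differ between panels. Hnrnpdl, Srsf2 and Sf3b6 are lowest and Srsf11 highest on the day 3 control arrays, while Srsf5 and Sf3b1 are highest on the arrays labelled depleted at day 1.

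Hnrnpll, the family member known for its part in mouse plasma cells, was dim and did not pass in any of these comparisons. It read 6.25 and 6.3 with the Jmjd2a label and 6.19 and 6.2 with the Jmjd2c label, against 6.68 and 6 in day 3 controls, and 6.17 and 6.29 in day 1 controls. The 2 day 3 controls lay on either side of all other arrays. The interval of the day 3 difference ran from -0.45 to 0.32 with the Jmjd2a label and from -0.53 to 0.24 with the Jmjd2c label, so modest changes in either direction were not detectable here.

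At day 1 the changes were smaller and less firm. With the Jmjd2a label 3 of the 38 genes rose and 4 fell, where 5.72% of all genes rose and 4.6% fell; with the Jmjd2c label 2 rose and 7 fell, where 7.57% rose and 7.35% fell. Among bright genes 10.1% and 12.7% rose and 12.7% and 19.6% fell, against 8.33% and 5.56% risen and 11.1% and 19.4% fallen of the 36 bright splicing genes, so these shares lay at or below the background. The Jmjd2a count was 0 without day 1 control replicate 2. It was 2 without day 1 control replicate 1, day 1 Jmjd2a replicate 1, or either day 3 Jmjd2c array, and 3 without either day 3 Jmjd2a array. The Jmjd2c count was 1 without either day 1 control and 2 without day 1 Jmjd2c replicate 2. Only the Srsf5 call with the Jmjd2c label held without each array in turn.

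Srsf5, an SR protein first found as an insulin-induced gene in rat liver cells, read 12.7 and 12.66 with the Jmjd2a label and 12.72 and 12.73 with the Jmjd2c label at day 1, against 12.51 and 12.48 in day 1 controls. The differences were 0.19 ± 0.03 and 0.23 ± 0.03 (limma adjusted p = 0.0043 and 9.0e-04). All 4 labelled arrays lay above both controls. Replicate differences of both labels correlated at day 1 (r = 0.392), so their arrays are not shown to be independent there. Sf3b1 read 12.16 and 11.96, and 12.14 and 12, against 11.81 on both controls (0.25 ± 0.06 and 0.26 ± 0.06, limma adjusted p = 0.029 and 0.019). Its differences ranged from 0.15 to 0.35 and from 0.19 to 0.33 as arrays were left out, and its calls held in 5 and 9 of the 12 cases. The 0.15 came without day 1 Jmjd2a replicate 1 (adjusted p = 0.24). Hnrnph3 rose by 0.28 ± 0.08 with the Jmjd2a label (limma adjusted p = 0.046), a call that held in 3 of the 12 cases.

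The falls included 2 subunits of factor 3a. Sf3a2 read 11.11 and 11.1 with the Jmjd2a label and 11.15 and 11.18 with the Jmjd2c label, against 11.37 and 11.45 in day 1 controls (-0.30 ± 0.05 and -0.25 ± 0.05, limma adjusted p = 0.0056 and 0.013). Sf3a3 read 10.56 and 10.47, and 10.5 and 10.41, against 10.8 and 10.79 (-0.28 ± 0.07 and -0.34 ± 0.07, limma adjusted p = 0.027 and 0.0074). All labelled arrays were below the controls in both. Of the 12 cases without 1 array, the Sf3a2 calls held in 11 and 8 and the Sf3a3 calls in 4 and 9. Hnrnpab fell by 0.16 ± 0.04 and 0.20 ± 0.04 (limma adjusted p = 0.033 and 0.0081), and Hnrnpm, a repressor and activator of exons, fell by 0.24 ± 0.06 and 0.25 ± 0.06 (limma adjusted p = 0.039 and 0.028). The Hnrnpab calls held in 4 and 9 of the 12 cases, and those of Hnrnpm in 6 with each label. With the Jmjd2c label Srsf1 fell by 0.23 ± 0.05, Hnrnpa2b1 fell by 0.16 ± 0.04 and Hnrnpa1 fell by 0.20 ± 0.06 (limma adjusted p = 0.012, 0.019 and 0.048), calls that held in 8, 8 and 3 of the 12 cases. A dimmer probe set of Hnrnpa2b1, 1433830_at, rose there by 0.34 ± 0.08 (limma adjusted p = 0.015), past the test the other way. For Hnrnpa1, whose brightest probe set is of the x type, 1436549_a_at read 10.93 and 10.91, against 10.88 and 10.77 in day 1 controls. Its 1455740_at was lower, at 5.78 and 6.05, against 6.39 and 6.11.

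Between days, the arrays labelled depleted changed in fewer of the genes than the controls. Day 3 against day 1 gave 1 rise and 2 falls with the Jmjd2a label (3.41% of all genes rose and 4.31% fell, and 7.92% and 7.43% of bright genes) and 4 rises and 2 falls with the Jmjd2c label (4.75% rose and 6.84% fell, and 11.3% and 12.3% of bright genes). Srsf5 fell by 0.23 ± 0.03 and 0.28 ± 0.03 (limma adjusted p = 0.0013 and 2.3e-04), in both cases without each array in turn. It read 12.46 and 12.44 at day 3 and 12.7 and 12.66 at day 1 with the Jmjd2a label, and 12.44 on both arrays of day 3 and 12.72 and 12.73 at day 1 with the Jmjd2c label. Sf3b1 fell by 0.26 ± 0.06 and 0.31 ± 0.06 (limma adjusted p = 0.031 and 0.0083), the first -0.16 without day 1 Jmjd2a replicate 1 (adjusted p = 0.26) and held in 5 of the 12 cases. Srsf1, Hnrnpa2b1, Hnrnpab and Sf3a3 rose by 0.15 to 0.27 with the Jmjd2c label, and Sf3b5 rose by 0.21 ± 0.05 with the Jmjd2a label (limma adjusted p = 0.045). The Sf3b5 rise was 0.12 without day 1 Jmjd2a replicate 1 (adjusted p = 0.33), and that of Hnrnpab was 0.10 without day 1 Jmjd2c replicate 2 (adjusted p = 0.27). The Hnrnpa2b1 rise was by its brightest probe set, while 1433830_at fell by 0.33 ± 0.08 (limma adjusted p = 0.023). The counts were 7 (Jmjd2a) and 11 (Jmjd2c) without either day 3 control array. The Jmjd2a count was 1 without either day 1 control, day 1 Jmjd2a replicate 1 or any day 3 array labelled depleted. The Jmjd2c count was 1 without either day 3 Jmjd2c array, 3 without day 1 Jmjd2c replicate 1 and 2 without day 1 Jmjd2c replicate 2.

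The difference between these changes was tested itself. The change between days with the Jmjd2a label, minus that in controls, was above 0 for 18 of the 38 genes and below 0 for 2 past the test, where 14.5% and 8.78% of all genes and 34.6% and 14.5% of bright genes passed in those directions. With the Jmjd2c label 17 were above 0 and 4 below, where 13.1% and 9.65% of all genes and 32.5% and 16.7% of bright genes passed. The Jmjd2c count of 21 was 13 without day 3 Jmjd2c replicate 2.

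None of the 38 genes passed the limma test between the labels Jmjd2a and Jmjd2c, on either day, and 0% of all 18193 genes passed in either direction. Unadjusted p-values under 0.05 numbered 0 at day 3 and 2 at day 1, where 3.97% and 2.03% of all genes had one, and differences lay between -0.15 and 0.14 at day 3 and between -0.13 and 0.18 at day 1. No gene passed when the arrays labelled depleted at day 3 were set against the day 1 controls either. There 3 (Jmjd2a) and 0 (Jmjd2c) unadjusted p-values were under 0.05, and differences lay between -0.17 and 0.14 and between -0.11 and 0.08. Of all genes, 0.192% and 0.209% were higher and 0% lower past the test in those 2 comparisons. Srsf2, for one, read 12.16 and 12.15 with the Jmjd2a label and 12.12 and 12.14 with the Jmjd2c label at day 3, and 12.25 and 12.22 in day 1 controls.

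Markers of other cells moved with these comparisons, and their part in the results was not tested. The mean log2 value of 12 macrophage markers was 6.09 to 6.18 (Jmjd2a) and 6.07 to 6.26 (Jmjd2c) at day 3, against 7.18 to 7.30 in day 3 controls. It was 8.23 to 8.69 and 8.10 to 9.30 at day 1, against 5.39 to 5.42 in day 1 controls. All 12 rose at day 1 with each label, 10 of 12 rose between days in controls, and 7 and 6 of 12 fell at day 3 with the 2 labels. Of 5 natural killer cell markers 4 and 5 rose at day 1, 4 rose between days in controls and 4 fell at day 3 with each label. The mean of 7 B cell markers was 10.68 to 10.99 and 10.94 to 10.97 on the labelled arrays of day 1, against 10.02 to 10.07 in their controls, and 5 of the 7 rose with each label. Neutrophil markers did not pass in the comparisons of day 1, where their mean ran from 5.35 to 8.05 on labelled arrays, against 4.62 to 4.66 in controls. All 7 were higher there with each label, with median differences of 1.39 and 1.81, but the labelled replicates lay far apart. T cell markers rose in 3 of 7 and erythroid markers in 2 of 4 with each label at day 1. Of all genes, 5.72% and 7.57% rose at day 1, 11.2% rose between days in controls, and 9.04% and 7.21% fell at day 3. The mean over the 38 splicing genes was 11.12 (Jmjd2a) and 11.10 to 11.11 (Jmjd2c) at day 3, against 10.95 to 10.97 in day 3 controls, and 11.08 and 11.04 to 11.08 at day 1, against 11.12 to 11.13 in day 1 controls. The remaining genes stayed between 6.44 and 6.49 on every array, but most of them are dim and do not serve as a like comparison. Bright genes had a median difference of -0.16 between days in controls, against -0.14 over the 38 genes.

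Most genes were read by several probe sets, and these did not always move together. Probe sets lie at different places along a transcript, and which transcript forms each reads was not tested. Of the 27 genes with further probe sets above the median level, 72 such probe sets were each set against the gene's brightest one. The difference between the pair passed for 21 of 72 with the Jmjd2a label at day 3, for 14 with the Jmjd2c label, and for 22 between days in controls. The same test passed for 16.8%, 8.09% and 18.7% of 8322 pairs of all genes, against 29.2%, 19.4% and 30.6% of these. The disagreements came from 14, 10 and 15 genes, as pairs of 1 gene share its brightest probe set. No share was computed for bright pairs, so an excess particular to these genes is not shown. At day 1 it passed for 4 and 5 of 72 (3.2% and 5.13% over all genes), and between days for 1 and 2 with the labels (1.45% and 3.6%). These counts moved much with single arrays. The first was 2 and 4 without day 3 Jmjd2a replicates 2 and 1, and 12 without day 3 control replicate 2. The second was 1 and 2 without day 3 Jmjd2c replicates 2 and 1, and 24 without day 3 control replicate 1. The third was 6 and 9 without day 1 control replicates 1 and 2. The day 1 counts were at most 2 without either day 1 control, either array of the label at day 1 or any labelled array of day 3, and that of Jmjd2c was 8 without either day 3 control.

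**Figure D4:**
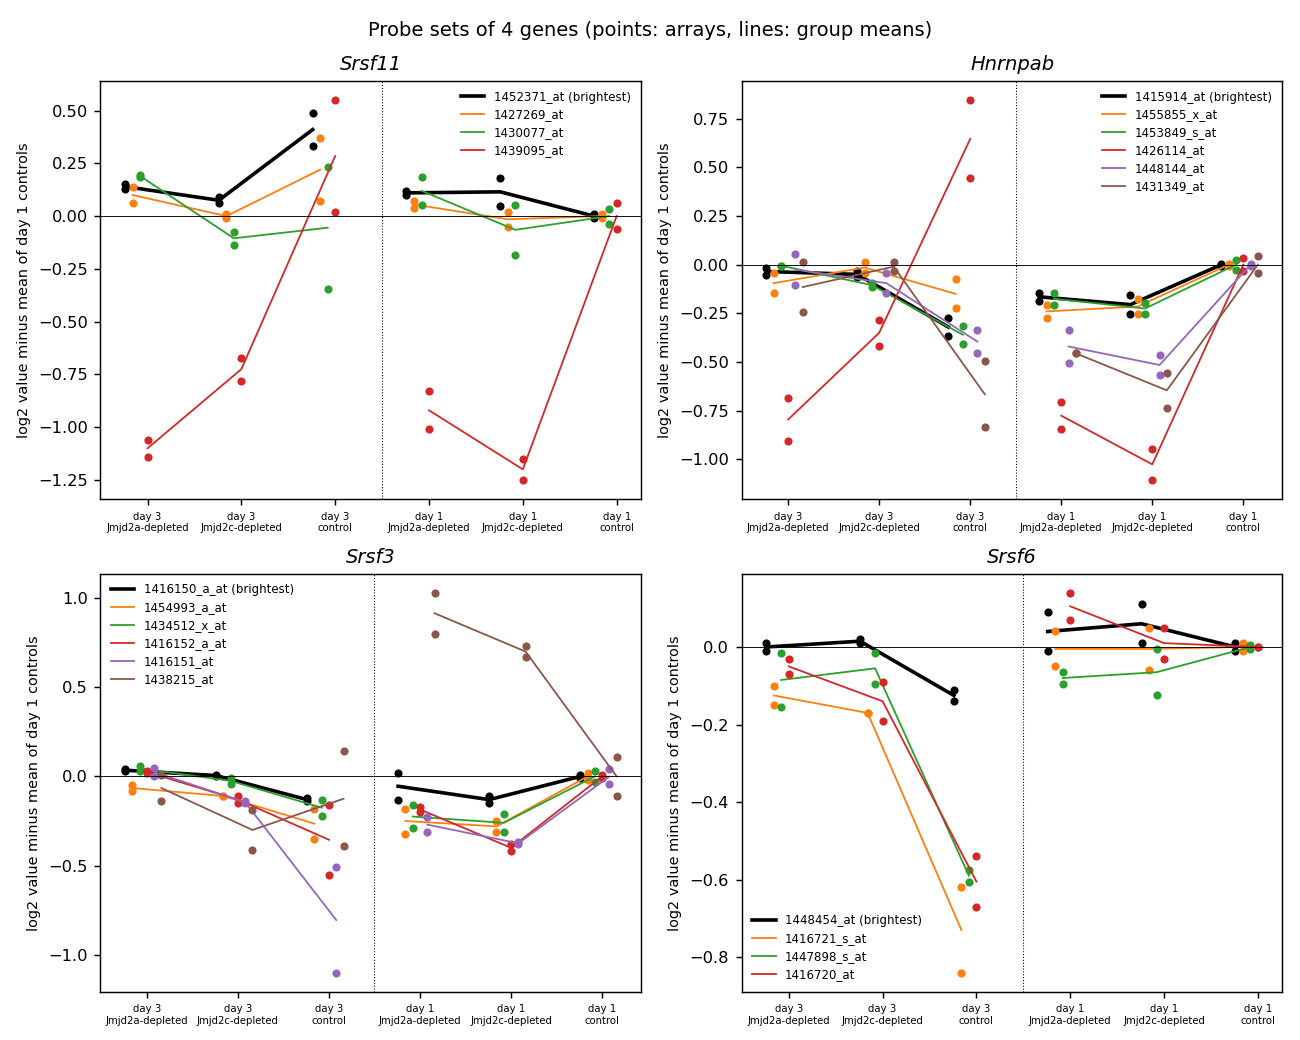
Log2 value of each probe set of Srsf11, Hnrnpab, Srsf3 and Srsf6 above the median level, minus its own mean in day 1 controls; points are arrays and lines join group means within a day, the brightest probe set in black. In Srsf11 and Hnrnpab 1 probe set lies below the others on the labelled arrays of both days, and in Srsf3 1 lies above them on those of day 1.

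Srsf11 showed the split at both days. Its probe set 1439095_at read 5.96 and 6.04 with the Jmjd2a label and 6.43 and 6.32 with the Jmjd2c label at day 3, against 7.65 and 7.12 in day 3 controls. At day 1 it read 6.27 and 6.09, and 5.85 and 5.95, against 7.16 and 7.04 in day 1 controls. All 8 labelled arrays lay below all 4 controls. The differences were -1.39 and -1.01 at day 3 and -0.92 and -1.21 at day 1 (SE 0.16, limma adjusted p between 7.8e-05 and 0.0035), where the brightest probe set gave -0.27, -0.34, 0.11 and 0.12. The gap between the pair passed in all 4 comparisons (limma adjusted p = 0.0022, 0.022, 0.0052 and 0.0011). It did not pass without day 1 control replicate 1 at day 1 with the Jmjd2a label (-0.99, adjusted p = 0.063), nor without day 3 Jmjd2c replicate 1 or 2 at day 3 with the Jmjd2c label (-0.72 and -0.63, adjusted p = 0.1 and 0.16).

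Hnrnpab had 1 probe set opposed to its brightest. Probe set 1426114_at read 10.18 and 10.4 with the Jmjd2a label and 10.67 and 10.8 with the Jmjd2c label at day 3, against 11.53 and 11.93 in controls (-1.44 and -1.0, SE 0.12, limma adjusted p = 8.8e-06 and 1.3e-04). The brightest probe set rose there by 0.28 and 0.27. Between days in controls 1426114_at rose by 0.65 ± 0.12 (limma adjusted p = 0.0016), with 11.53 and 11.93 at day 3 and 11.05 and 11.12 at day 1, while the brightest fell by 0.32. At day 1 both fell, 1426114_at by more (-0.77 and -1.02). Of the other further probe sets of Hnrnpab above the median level, 1453849_s_at, 1448144_at and 1431349_at gave differences of the brightest one's sign in the 3 comparisons with day 3 controls. So did 1455855_x_at, by less: its Jmjd2a arrays of day 3 (12.89 and 12.99) overlapped the day 3 controls (12.81 and 12.96).

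Srsf3 was split at day 1. Its probe set 1438215_at read 8.4 and 8.17 with the Jmjd2a label and 8.1 and 8.04 with the Jmjd2c label, against 7.48 and 7.26 in day 1 controls. It rose by 0.92 ± 0.16 and 0.70 ± 0.16 (limma adjusted p = 0.005 and 0.016), where the brightest probe set gave -0.06 and -0.13. At day 3 it read 7.38 and 7.23, and 7.18 and 6.96, against 7.51 and 6.98 in controls, and the groups overlapped. The gap between the pair at day 1 did not pass without either day 1 control (adjusted p = 0.1 to 0.23), nor without day 1 Jmjd2a replicate 1 (0.79, adjusted p = 0.21) or either day 1 Jmjd2c array (0.78 and 0.88, adjusted p = 0.16 and 0.13) for that label. Without a labelled array of day 3 its adjusted p was 0.052 to 0.064 in most cases.

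Srsf6 was split at day 3. Its brightest probe set did not pass (0.13 with each label, limma adjusted p = 0.079 and 0.082). Probe set 1416721_s_at read 10.9 and 10.95 with the Jmjd2a label and 10.88 on both Jmjd2c arrays, against 10.43 and 10.21 in controls, and rose by 0.60 ± 0.07 and 0.56 ± 0.07 (limma adjusted p = 1.1e-04 and 2.4e-04). The other 2 further probe sets, 1447898_s_at and 1416720_at, rose by 0.46 to 0.56 with the labels. With the Jmjd2a label, the gap between each of the 3 and the brightest did not pass without day 3 Jmjd2a replicate 2. With the Jmjd2c label it did not pass without either day 3 Jmjd2c array. Between days in controls the 3 fell by 0.73, 0.59 and 0.61. So Srsf6 is not among the genes counted as changed by its brightest probe set, while its 3 dimmer ones passed in each of these comparisons. Hnrnpf did not pass by its brightest probe set either. Its 1450963_at read 10.95 on both day 3 controls, against 11.42 on both day 1 controls and 11.29 to 11.37 on the labelled arrays of day 3. Its 1423382_a_at read 11.68 and 11.67, against 12.02 and 12.01 in day 1 controls, while the control groups overlapped by 1437099_x_at.

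Hnrnpa2b1, of the core hnRNP particle, and Sf3b1 showed splits of the same kind. The brightest probe set of Hnrnpa2b1 gave 0.04 ± 0.04 between days in controls, while 1433829_a_at, 1433830_at and 1434047_x_at rose by 0.56, 0.53 and 0.34 (limma adjusted p between 4.0e-04 and 9.2e-04). At day 3 1433829_a_at fell by 0.48 and 0.49 with the labels. For Sf3b1, 1418561_at read 7.42 and 7.5, and 7.35 and 7.49, on the labelled arrays of day 3, against 6.87 and 5.85 in controls, a rise of 1.10 and 1.06 (SE 0.23, limma adjusted p = 0.005 and 0.008). The same comparison gave -0.26 and -0.32 by its probe set 1418562_at and 0.02 and -0.03 by the brightest. The 2 control values of 1418561_at lay far apart, the lower on day 3 control replicate 2. Its gap to the brightest did not pass with the Jmjd2a label without day 3 Jmjd2a replicate 2. Nor did it with the Jmjd2c label without either day 3 Jmjd2c array.

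Among the genes that passed by their brightest probe set and had further ones, all further probe sets had the same sign for 9 of 14 at day 3 with the Jmjd2a label, 7 of 12 with the Jmjd2c label and 11 of 16 between days in controls. At least 1 further probe set also passed in the same direction for 12, 10 and 13 of them. In all 3 comparisons Hnrnpab, Sf3a1 and Sf3a2 had a further probe set of the other sign. So had Hnrnpu with both labels. Hnrnpdl did with the Jmjd2c label, Srsf11 with the Jmjd2a label, and both between days in controls.

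Other genes of the splicing machinery were read from lists chosen for their known roles, and no list was tested against another. With the Jmjd2a and Jmjd2c labels at day 3, 16% and 12.1% of all genes and 35.8% and 28.9% of bright genes rose. Between days in controls 17.2% of all genes and 38.5% of bright genes fell. In the other direction, 9.04% and 7.21% of all genes fell at day 3 and 11.2% rose between days in controls. The lists were not split by brightness. Of 15 genes for U2 snRNP partners and branch point recognition, 12 and 10 rose at day 3 with the Jmjd2a and Jmjd2c labels and 14 fell between days in controls. These were 80%, 66.7% and 93.3% of the list. Snrpa1, a U2 protein that binds the U2 RNA together with Snrpb2, changed by 0.91 ± 0.06 and 1.01 ± 0.06 at day 3 and by -1.08 ± 0.06 between days in controls (limma adjusted p = 3.5e-06, 2.5e-06 and 3.9e-07). Its day 1 differences were -0.37 ± 0.06 and -0.42 ± 0.06 (limma adjusted p = 0.0041 and 0.0013). Puf60, which joins U2AF at the 3′ splice site, fell by 0.68 ± 0.10 between days in controls (limma adjusted p = 2.7e-04). The medians of this list were 0.33, 0.30 and -0.33.

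Of 15 Sm and LSm proteins, the rings on the small nuclear RNAs, 8 and 7 rose at day 3 and 7 fell between days in controls (53.3%, 46.7% and 46.7%). Snrpd3 rose by 0.41 ± 0.05 with both labels (limma adjusted p = 1.4e-04 and 1.7e-04). Of 18 proteins of the U1 and U4/U6.U5 particles, 7 and 8 rose at day 3 and 10 fell between days in controls (38.9%, 44.4% and 55.6%). Eftud2, the GTPase of U5, rose by 0.49 ± 0.06 and 0.42 ± 0.06 (limma adjusted p = 2.1e-04 and 7.6e-04). Of 22 SR-related proteins 11 and 5 rose (50% and 22.7%) and 0 and 1 fell at day 3, and 10 (45.5%) fell between days in controls. Luc7l, a U1 partner, was among them at 0.60 ± 0.08, 0.58 ± 0.08 and -0.74 ± 0.08 (limma adjusted p = 4.1e-04, 5.9e-04 and 5.8e-05). Of 28 other regulators of splice site choice 15 and 12 rose (53.6% and 42.9%) and 2 fell with each label at day 3. Between days in controls 15 (53.6%) of them fell and 2 rose. Sfpq, a partner of polypyrimidine tract binding protein, gave 0.43 ± 0.04, 0.40 ± 0.04 and -0.44 ± 0.04 (limma adjusted p = 3.0e-05, 5.6e-05 and 1.3e-05). Of 10 genes of the exon junction complex and nonsense-mediated decay 5 and 2 rose at day 3 (50% and 20%) and 5 (50%) fell between days in controls. Several of these shares lay near or below those of bright genes.

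Of 10 kinases that put phosphate on SR proteins, 5 rose and 0 fell at day 1 with each label. There 5.72% and 7.57% of all genes and 10.1% and 12.7% of bright genes rose. Clk1, a nuclear SR kinase, rose by 1.28 ± 0.13 and 1.23 ± 0.13 at day 1 (limma adjusted p = 8.7e-05 and 7.8e-05). Srpk3, an SR kinase best known from muscle, rose by 0.77 ± 0.11 and 1.12 ± 0.11 (limma adjusted p = 9.6e-04 and 4.1e-05). Both fell between days with the labels, Clk1 by 1.04 ± 0.13 and 1.17 ± 0.13 (limma adjusted p = 4.8e-04 and 1.2e-04). At day 3, 3 of the kinases (30%) rose and 2 (20%) fell with each label, and between days in controls 2 (20%) rose and 3 (30%) fell. Of bright genes 35.8% and 28.9% rose and 12.8% and 13.3% fell at day 3, and 16% rose and 38.5% fell between days in controls.

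**Figure D5:**
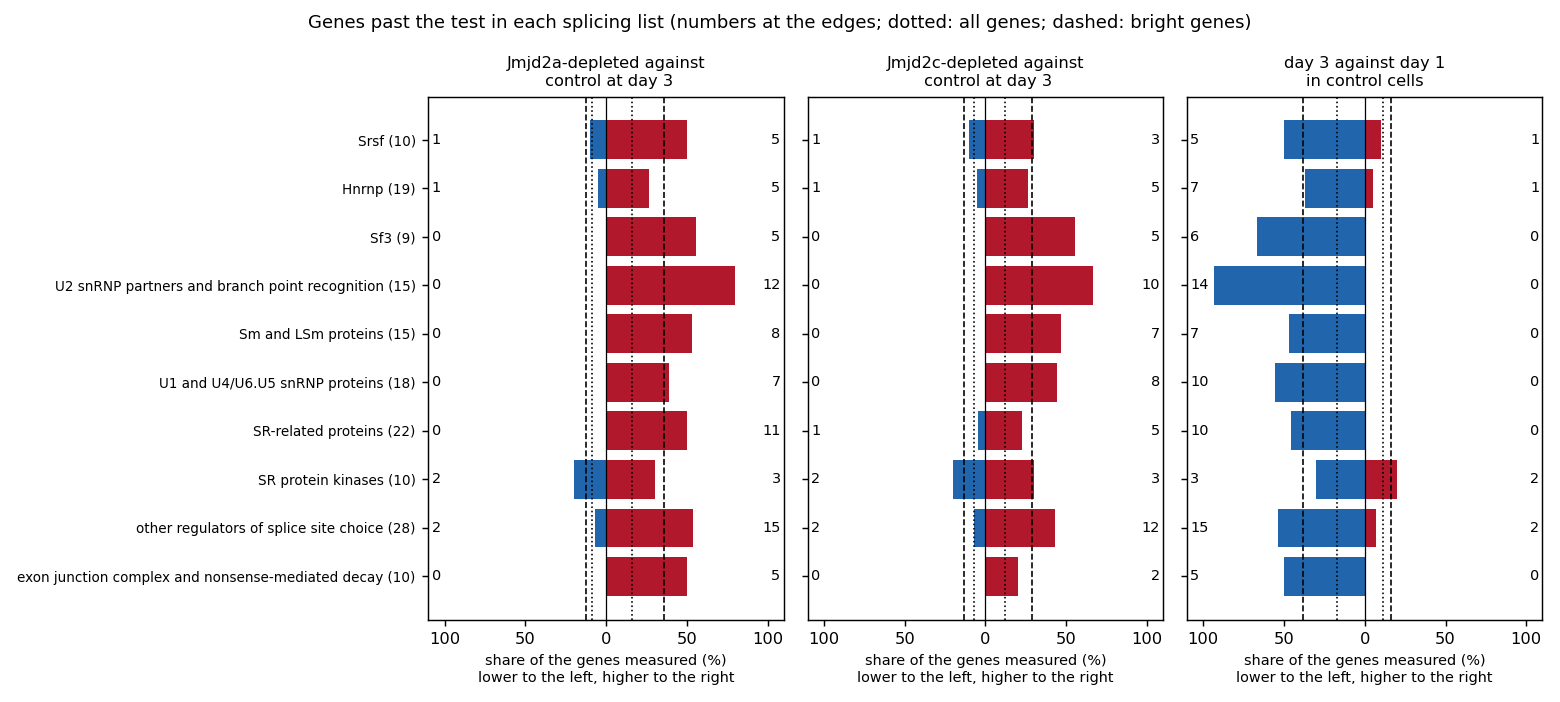
Share of the measured genes of each list (number measured in brackets) that were higher (red, right) or lower (blue, left) past the test in 3 comparisons, with the counts at the panel edges. Dotted lines give the share of all 18193 genes and dashed lines that of the 5478 genes with a mean above 8; the U2 snRNP partners, with 12, 10 and 14 genes, reach farthest past both.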

How the data were processed

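Labels give 12 arrays in 6 groups of 2. The authors deposited log2 probe set values. How these were normalized was not given in the sources used. Genes were named from the platform annotation: of 45101 probe sets 64 controls were left out, and 34945 of 45037 named 1 gene, 932 several and 9160 none. With 2 arrays per group, their number limits precision. One model of 6 group means was fitted to all probe sets in limma 3.58.1 (R 4.3.3) with a trended empirical Bayes prior (6 residual and 5.85 prior degrees of freedom). The same fit on within-gene differences compared probe sets. Contrasts that share controls are not independent. The fit was tested on simulated data. Whether equal replicate numbers pair arrays was checked by correlating replicate differences between groups: r ran from -0.111 to 0.392 over 15 pairs. Only 1 pair was over 0.1, that of day 1 Jmjd2a and day 1 Jmjd2c, and no pairing was used. Members, lists and the brightness level of 8 were chosen with earlier results of these data known. Genes with a value on every array were up to 3 of smallest p per family and comparison and those whose probe sets disagreed, of which the text gives a part; other genes named were up to 2 of smallest p per list. Alternatives were other normalizations, filters, priors, weights, probe set choices, arrays and a replicate block. Figures were drawn in matplotlib 3.10.9 (Python 3.11.15).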

Additional observations from a re-analysis of the deposited data

Results flagged for a closer look

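The change between days differed from that in controls, by the interaction term of the limma fit, for 20 of the 38 genes with the Jmjd2a label and 21 with the Jmjd2c label. Of all genes 14.5% and 13.1% passed above 0 and 8.78% and 9.65% below. Of bright genes 34.6% and 32.5% passed above 0 and 14.5% and 16.7% below. Values are log2, the change with the label minus the change in controls, and each passed at an adjusted p under 0.05. With the Jmjd2a label the Srsf genes gave 0.27 (Srsf1), 0.51 (Srsf2), 0.23 (Srsf3), 0.50 (Srsf4), 0.45 (Srsf10) and -0.38 (Srsf11). For the Jmjd2c label the values were 0.39 (Srsf1), 0.52 (Srsf2), 0.27 (Srsf3), -0.19 (Srsf5), 0.44 (Srsf10) and -0.45 (Srsf11). The Srsf10 values were 0.29 (Jmjd2a) and 0.28 (Jmjd2c) without day 3 control replicate 2, still past the test, and the calls held in 8 and 7 of the 12 cases without 1 array. With the Jmjd2a label the Srsf4 and Srsf1 calls also held in 8 of them and that of Srsf3 in 7. The Srsf5 call with the Jmjd2c label held in 9.

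The Hnrnp genes gave 0.45 (Hnrnpab), 0.20 (Hnrnpc), 0.55 (Hnrnpd), 0.56 (Hnrnpdl), -0.55 (Hnrnph3), 0.37 (Hnrnpm) and 0.38 (Hnrnpu) with the Jmjd2a label. With the Jmjd2c label they gave 0.47 (Hnrnpab), 0.15 (Hnrnpc), 0.59 (Hnrnpd), 0.53 (Hnrnpdl), -0.56 (Hnrnph3), 0.22 (Hnrnpk), 0.36 (Hnrnpm) and 0.43 (Hnrnpu). With that label the Hnrnpk call held in 3 and the Hnrnpc call in 4 of the 12 cases without 1 array. The Hnrnpm calls held in 10 (Jmjd2a) and 9 (Jmjd2c) of them.

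The Sf3 genes gave 0.64 (Sf3a1), 0.60 (Sf3a2), 0.48 (Sf3a3), 0.71 (Sf3b3), 0.42 (Sf3b4), 0.43 (Sf3b5) and 0.57 (Sf3b6) with the Jmjd2a label. With the Jmjd2c label they gave 0.61 (Sf3a1), 0.63 (Sf3a2), 0.54 (Sf3a3), -0.29 (Sf3b1), 0.46 (Sf3b4), 0.28 (Sf3b5) and 0.53 (Sf3b6). With that label the Sf3b1 call held in 4 and the Sf3b5 call in 6 of the 12 cases without 1 array. The Sf3b4 calls held in 8 (Jmjd2a) and 10 (Jmjd2c) of them. The Sf3b3 value was 0.41 without day 3 control replicate 2, still past the test (adjusted p = 0.0098), and lost the call without 5 other arrays (adjusted p = 0.055 to 0.1). A gene named for 1 label alone is not shown to differ between the labels. Groups of 2 arrays allow no search for outlying samples.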

How the results depend on the processing

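Of 3787 values of single genes under settings that use all arrays, 3526 kept their side of the threshold and, where they passed, their direction. Values past the test in neither fit count among these whatever their sign. Of the others 144 lost and 112 gained the call. A further 5 reversed, which was called only where at least 1 of the fits passed. Of 5928 values without 1 array the numbers were 5577, 259, 92 and 0. The 5 reversals came with the mean of a gene's probe sets: Hnrnpa2b1 at day 3 with the Jmjd2a label (-0.26) and in both changes between days set against control (-0.38 and -0.33), and Hnrnpa1 (-0.26) and Hnrnpr (-0.35) between days in controls. There the value averages probe sets that differ in sign. A prior variance without the trend gave 0 genes for both labels at day 1 and for both labels between days, 13 between days in controls, and 11 (Jmjd2a) and 12 (Jmjd2c) for the differences of those changes. Array weights gave 15 at day 1 with Jmjd2c, and 7 and 12 between days with Jmjd2a and Jmjd2c. Fits on the arrays of the same day or label, with fewer samples, gave 4 at day 1 with Jmjd2a, 12 between days in controls and 1 between days with Jmjd2a; they cannot be made for differences of changes or for day 3 labels against day 1 controls. Probe sets at any level gave 2 disagreements at day 1 with Jmjd2a and 1 between days with Jmjd2c. The cause of the other shifts was not tested.

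Without 1 array the counts of genes ranged over 0 to 9 and 1 to 11 at day 1, 12 to 21 and 8 to 21 at day 3 (Jmjd2a and Jmjd2c), 12 to 23 between days in controls, 1 to 7 and 1 to 11 with the labels, and 14 to 24 and 13 to 25 for the differences of changes. They were 0 throughout for Jmjd2a against Jmjd2c and for day 3 labels against day 1 controls. Counts of disagreeing probe sets ranged over 0 to 4 and 1 to 8 at day 1, 2 to 30 and 1 to 24 at day 3, 6 to 32 between days in controls, and 0 to 1 and 0 to 6 with the labels. With the replicate number as a replicate block the counts were 6 and 8 at day 1, 18 and 18 at day 3, and 20 between days in controls. They were 3 and 7 with the labels, and 21 and 23 for the differences. By the same rule 484 of 494 values were the same, 2 lost and 8 gained the call. The titles do not say whether the numbers pair samples. Only the day 1 arrays labelled Jmjd2a and Jmjd2c had replicate differences that correlated over 0.1 (r = 0.392). No gene list was tested as a set.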
